A study of Mus musculus with 4 samples.

Results

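The 10 genes described here are pan-neuronal differentiation genes, whose products build the cytoskeleton, the RNA-binding machinery and the synaptic terminals of nerve cells. They were *Tubb3*, *Dcx*, *Map2*, *Nefl*, *Nefm*, *Stmn2*, *Elavl3*, *Elavl4*, *Snap25* and *Syp*, selected by name from the 24637 genes of the deposited table. Of the 10, 9 were listed under these symbols, and *Map2* was listed as *Mtap2* (ENSMUSG00000015222). Messenger RNA was sequenced in 4 libraries of differentiated mouse embryonic stem cells (ESCs), from lines derived from blastocysts of crosses between *Taf4a*+/- mice. The WT group (*Taf4*+/+) had 2 libraries and the group labelled *Taf4a*-/- (*Taf4*-/-) had 2 libraries. Per the methods of the study, the replicates of each genotype were biological and came from independent ESC lines. The spread between libraries that enters the p-values thus holds differences of line, culture and library preparation together. Taf4a is a subunit of TFIID, the general factor that binds core promoters, and the null allele lacks internal exons. The cells were kept on inactivated mouse embryonic fibroblast feeders with LIF, then grown for 5 days as embryoid bodies with 20% fetal calf serum and for 9 days on gelatin, a protocol for cardiomyocytes and not for neurons. Each library was therefore a whole culture of mixed cells, in which fewer cells of a type and less RNA per cell cannot be told apart.

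Neurons assemble their axons and dendrites from tubulin, which microtubule-associated proteins bind and stabilise, and from neurofilaments, which set axon calibre. RNA-binding proteins of the Elav family stabilise and splice neuronal transcripts from the time a precursor leaves the cell cycle, and SNARE proteins fuse transmitter vesicles with the membrane at the terminal. These genes are textbook markers of neurons, although several are also used by endocrine cells, and embryoid bodies grown without neural induction commonly contain some neurons.

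Between 21732746 and 27733034 reads per library fell on genes. Values are normalized read counts, which are the reads divided by a size factor for each library, and are given in the order of replicates 1 and 2. *Taf4a* itself had 889 and 678 normalized counts in the first and the second WT library, against 1722 and 1799 in those labelled *Taf4a*-/-. This count was higher under the *Taf4a*-/- label, but it covers the whole gene and does not test the deleted exons, so it does not check the labels. All directions given here follow the labels. The labelled cell type, cardiac cells, had all 10 cardiomyocyte markers present in every library, with a summed level of 28469 to 31810 in WT against 3292 to 3464 in those labelled *Taf4a*-/-, where all 10 were lower. At the same time 8 of 10 pluripotency markers were higher and 7 of 8 fibroblast markers lower under the *Taf4a*-/- label. Markers of 3 other cell types thus moved with the genotype, and their part in the results on the neuronal genes was not tested.

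Promoter sequences were taken from RefSeq (GRCm38.p6), which provided windows from 250 bases before to 50 bases after the transcription start for 6 of the 10 genes. Shown here are windows of *Dcx*, *Elavl3* and *Elavl4*, the genes that differed most between the WT libraries, and of *Tubb3*, the most expressed of the 10. They are written 5′ to 3′ on the strand of the gene, and capitals mark matches on either strand to 1 of 4 motifs. The TATA box was searched as TATAAA. The GC box was searched as GGGCGG. The letters of the CCAAT box are its name, and the E-box was searched as CAGCTG. Of the matches shown none overlapped another.
*Tubb3*, chr8:123411303-123411602, plus strand: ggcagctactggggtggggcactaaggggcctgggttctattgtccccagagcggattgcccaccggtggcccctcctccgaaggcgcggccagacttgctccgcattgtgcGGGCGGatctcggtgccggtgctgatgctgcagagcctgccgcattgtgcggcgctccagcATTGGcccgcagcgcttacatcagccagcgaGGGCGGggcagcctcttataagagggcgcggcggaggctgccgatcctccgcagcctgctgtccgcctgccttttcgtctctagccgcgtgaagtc
*Dcx*, first of 2 windows, chrX:143933170-143933469, minus strand: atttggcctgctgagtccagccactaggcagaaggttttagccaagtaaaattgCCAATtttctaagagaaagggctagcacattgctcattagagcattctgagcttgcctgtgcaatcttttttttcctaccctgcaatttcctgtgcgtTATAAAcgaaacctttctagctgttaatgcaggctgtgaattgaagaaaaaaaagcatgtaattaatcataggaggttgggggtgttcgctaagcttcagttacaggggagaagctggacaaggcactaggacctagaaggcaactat
*Elavl3*, chr9:22051974-22052273, minus strand: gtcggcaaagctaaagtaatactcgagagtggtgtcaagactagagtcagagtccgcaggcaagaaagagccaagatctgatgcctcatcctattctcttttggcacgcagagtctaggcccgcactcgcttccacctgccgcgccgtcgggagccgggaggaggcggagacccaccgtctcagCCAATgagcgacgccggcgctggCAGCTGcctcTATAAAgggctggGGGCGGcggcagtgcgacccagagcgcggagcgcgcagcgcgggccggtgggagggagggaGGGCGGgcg
*Elavl4*, first of 4 windows, chr4:110351862-110352161, minus strand: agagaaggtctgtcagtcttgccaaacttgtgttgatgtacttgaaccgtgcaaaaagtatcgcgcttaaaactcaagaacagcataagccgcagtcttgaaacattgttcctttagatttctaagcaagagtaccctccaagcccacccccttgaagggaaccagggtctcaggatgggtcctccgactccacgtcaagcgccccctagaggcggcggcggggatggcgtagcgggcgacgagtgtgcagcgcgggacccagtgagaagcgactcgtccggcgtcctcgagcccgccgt
*Elavl4*, second of 4 windows, chr4:110287478-110287777, minus strand: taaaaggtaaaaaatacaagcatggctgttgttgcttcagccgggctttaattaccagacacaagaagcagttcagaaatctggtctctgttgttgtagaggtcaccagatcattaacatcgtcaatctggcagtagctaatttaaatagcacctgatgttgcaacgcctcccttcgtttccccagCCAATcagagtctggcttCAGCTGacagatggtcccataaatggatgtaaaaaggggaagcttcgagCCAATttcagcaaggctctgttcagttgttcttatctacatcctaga
The *Elavl3* window held all 4 motifs, with a TATA box match starting at -33 and an E-box match at -43 relative to the start site. A TATA box also occurred in the *Dcx* window, at -98, and a CCAAT box at -196. The *Tubb3* window held GC boxes at -138 and -46 and a CCAAT box at -77. No match was found in the first *Elavl4* window, whereas the second held CCAAT boxes at -64 and 4 and an E-box at -46. Among 32817 promoter windows of the same length, 13.6% held a TATA box, 35.6% a GC box, 37.4% a CCAAT box and 16.3% an E-box. A CCAAT box occurred in the *Tubb3* and *Elavl3* windows, in both *Dcx* windows and in 3 of the 4 *Elavl4* windows. The second and the third *Elavl4* window overlap and hold the same CCAAT matches. The *Map2* window (chr1:66175079-66175378) held 5 GC boxes and the *Syp* window (chrX:7638330-7638629) held 2.

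The first comparison asked whether the neuronal genes differed between the genotypes. In the libraries labelled *Taf4a*-/- 2 neuronal genes had lower values than in WT, the neurofilament gene *Nefl* by 3.05-fold and the synaptic SNARE gene *Snap25* by 4.14-fold. The other 8 did not pass the test, and none was called higher. A mean of 10 or more normalized counts was reached by 16926 genes, all 10 neuronal genes among them, and of these limma called 28.6% at an adjusted p-value under 0.05, 17.3% lower and 11.3% higher. The 2 of 10 called lower (20.0%) thus lay near the share of all genes. At an unadjusted p under 0.05, limma also gave 0 higher and 2 lower, as did limma's voom on the recovered reads after adjustment. The median log2 fold change of the 10 genes was -0.15, against -0.01 over all genes tested. In 5 of the 10, the values of the genotypes did not overlap, 4 with lower and 1 with higher values in the libraries labelled *Taf4a*-/-. Over all genes tested, 71.1% did not overlap, 36.6% with lower and 34.5% with higher values. With 2 libraries against 2, an exact permutation test cannot give a p below 0.333, so limma here borrows its estimate of the spread between libraries from all genes.

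**Figure D1:**
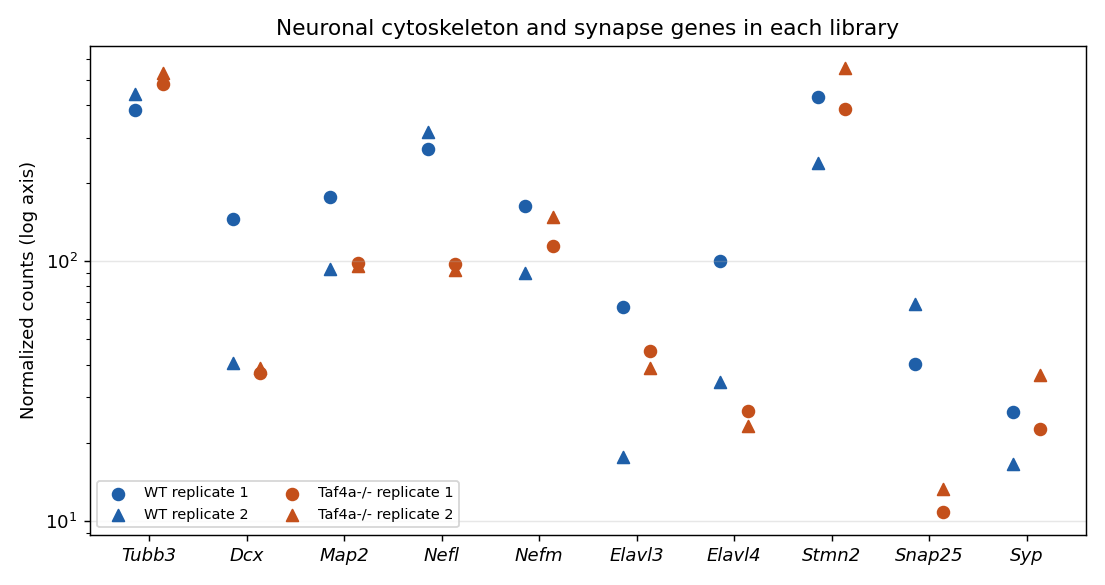
Normalized read counts (log axis) of the 10 neuronal genes in each of the 4 libraries, with 1 point per library coloured by genotype. The WT points of *Dcx*, *Elavl3* and *Elavl4* lie far apart, whereas both WT points of *Nefl* and *Snap25* lie above both points labelled *Taf4a*-/-.

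The tubulin and the microtubule-associated proteins were not called in either direction. *Tubb3* (chr8:125935324-125945915, build NCBIM37 (mm9), as for all genes, plus strand), the β-tubulin used as a marker of young neurons, had 384 and 443 normalized counts in WT against 483 and 531 in those labelled *Taf4a*-/-. The groups did not overlap, and the log2 fold change was 0.30 (95% confidence interval -0.10 to 0.69, limma adjusted p = 0.220). *Dcx* (chrX:140290385-140367854, minus strand), doublecortin, stabilises microtubules in migrating neurons. It had 146 and 40.5 normalized counts in WT and 37.2 and 38.7 in the libraries labelled *Taf4a*-/-. Only WT replicate 1 stood apart, and the log2 fold change of -1.0 had an interval of -2.45 to 0.45 (limma adjusted p = 0.248). *Map2* (chr1:66221847-66489157, plus strand), the microtubule-associated protein of dendrites, had 176 and 93.5 in WT and 98.9 and 96.2 in the libraries labelled *Taf4a*-/-. Here WT replicate 2 lay just below both libraries of the other genotype and WT replicate 1 above them, with a log2 fold change of -0.39 (interval -1.25 to 0.46, limma adjusted p = 0.429). *Stmn2* (chr3:8509527-8561604, plus strand), stathmin-2, is a tubulin-binding protein of growth cones. Its values overlapped, at 430 and 240.0 in WT against 385 and 555 in those labelled *Taf4a*-/-, and the log2 fold change was 0.52 (interval -0.26 to 1.31, limma adjusted p = 0.262).

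The neurofilament genes *Nefl* and *Nefm*, neighbours on chromosome 14 that code for the light and the medium subunit, went apart. *Nefl* (chr14:68701920-68707152, plus strand) had 271 and 316 normalized counts in WT against 97.9 and 92.9 in those labelled *Taf4a*-/-. Both libraries of each genotype lay close together, and the log2 fold change was -1.61 (standard error 0.22, interval -2.14 to -1.08, limma adjusted p = 0.0055). *Nefm* (chr14:68700647-68742903, minus strand) had 164 and 90.4 in WT against 115 and 148 in those labelled *Taf4a*-/-. The groups overlapped, with a log2 fold change of 0.10 (interval -0.75 to 0.94, limma adjusted p = 0.855). The annotated exons of both genes overlap over 1108 nucleotides on opposite strands. The library kit does not mark the strand, so reads from this stretch cannot be assigned to either gene, and the difference between their fold changes was not tested. Similar overlaps with predicted genes cover 124 nucleotides of *Map2* and 875 nucleotides of *Syp*.

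The neuronal Elav genes were low and variable. *Elavl3* (chr9:21819449-21856467, minus strand) had 66.6 and 17.7 normalized counts in WT and 45.0 and 38.7 in the libraries labelled *Taf4a*-/-. The latter lay between both WT libraries, with a log2 fold change of 0.27 (interval -1.26 to 1.79, limma adjusted p = 0.773). *Elavl4* (chr4:109876327-110024514, minus strand) had 99.9 and 34.3 in WT and 26.4 and 23.2 in the libraries labelled *Taf4a*-/-. Although the groups did not overlap, the log2 fold change of -1.21 (interval -2.54 to 0.11) did not pass (limma adjusted p = 0.144).

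Of the genes of the synaptic terminal, *Snap25* (chr2:136539189-136608164, plus strand) codes for the SNARE protein of the plasma membrane that drives vesicle fusion. It had 40.3 and 68.6 normalized counts in WT and 10.8 and 13.3 in the libraries labelled *Taf4a*-/-, which rest on 46, 66, 11 and 12 reads. All WT values were above those of the other genotype, and the log2 fold change was -2.05 (standard error 0.44, interval -3.11 to -0.99, limma adjusted p = 0.0202). This call was lost without WT replicate 2 (-1.67, limma adjusted p = 0.0815) and without the library labelled *Taf4a*-/- replicate 1 (-1.91, adjusted p = 0.0524), within a range of 0.0178 to 0.0815 over its alternatives. *Syp* (chrX:7215597-7230382, plus strand), synaptophysin, an abundant protein of the vesicle membrane, had 26.3 and 16.6 in WT and 22.5 and 36.5 in the libraries labelled *Taf4a*-/-. The groups overlapped, with a log2 fold change of 0.44 (interval -0.67 to 1.55, limma adjusted p = 0.501). *Xist*, the RNA that silences an X chromosome, had 6.14 and 7.27 in WT and 217 and 6470.0 in the libraries labelled *Taf4a*-/-. Its part in the values of the X-linked *Dcx* and *Syp* was not tested.

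**Figure D2:**
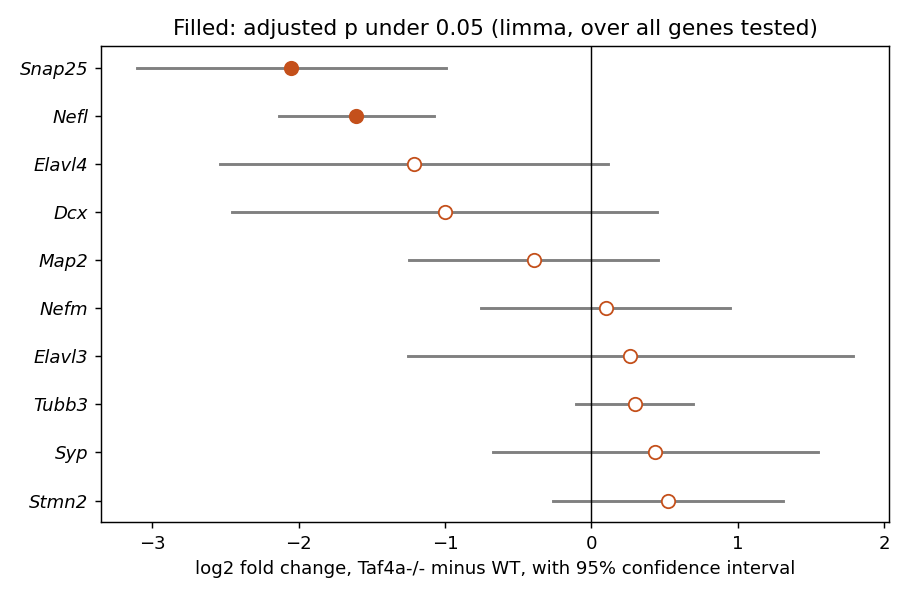
Log2 fold change of the libraries labelled *Taf4a*-/- over WT for the 10 neuronal genes, on the log2(normalized count + 1) scale, with the 95% confidence interval from limma as bars. *Nefl* at -1.61 and *Snap25* at -2.05 have intervals below 0, and the other 8 intervals include 0.

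The replicates of 1 genotype were then compared with each other. *Dcx*, *Elavl3* and *Elavl4* were at least 2-fold apart between the WT libraries, all with more reads in WT replicate 1, whereas none of the 10 genes was 2-fold apart between the libraries labelled *Taf4a*-/-. *Elavl3* was 3.77 times (exact 95% interval for counting error 2.21 to 6.81), *Dcx* 3.59 times (2.52 to 5.23) and *Elavl4* 2.91 times (1.96 to 4.43) as high in WT replicate 1 as in WT replicate 2. The ratio was 1.88 (1.46 to 2.44) for *Map2*, 1.81 (1.40 to 2.37) for *Nefm* and 1.79 (1.53 to 2.10) for *Stmn2*. *Syp* had a ratio of 1.58, but its interval (0.835 to 3.11) included 1. The order was the opposite for *Tubb3* (0.868, 0.757 to 0.994), *Nefl* (0.858, 0.730 to 1.01) and *Snap25* (0.588, 0.395 to 0.870). The 3 of 10 genes that were 2-fold apart compare with 6.96% of all genes tested, and 4.06% were 2-fold higher in WT replicate 1. The median log2 difference between WT replicates 1 and 2 was 0.84 over the 10 genes and -0.02 over all genes.

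The libraries labelled *Taf4a*-/- differed by -0.67 to 0.21 on the log2 scale over the 10 genes, and 5.27% of all genes were 2-fold apart between them. The widest gap beyond counting error was that of *Stmn2*, at a ratio of 0.693 (0.606 to 0.792) of replicate 1 to replicate 2. *Dcx* and *Elavl4* passed the test when WT replicate 2 was left out, at -1.91 (limma adjusted p = 0.0420) and -1.97 (adjusted p = 0.0482), and their log2 fold changes were -0.09 and -0.45 when WT replicate 1 was left out instead. The sign of *Elavl3*, *Map2* and *Nefm* also depended on which library was left out. With the same split of the WT libraries, 7 of the 14 tested genes of the neural progenitor list, among them *Sox2* (1277 and 385 normalized counts) and *Fabp7* (80.7 and 34.3), were at least 2-fold higher in WT replicate 1, as were 5 of 10 pluripotency markers. The part of these cells in the split was not tested. The 4 neuronal lists described further on did not share the split as a whole, since 32 of their 64 tested genes were higher in WT replicate 1 and their median log2 difference was 0.00039. In the list of synaptic vesicles and release it was -0.33.

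**Figure D3:**
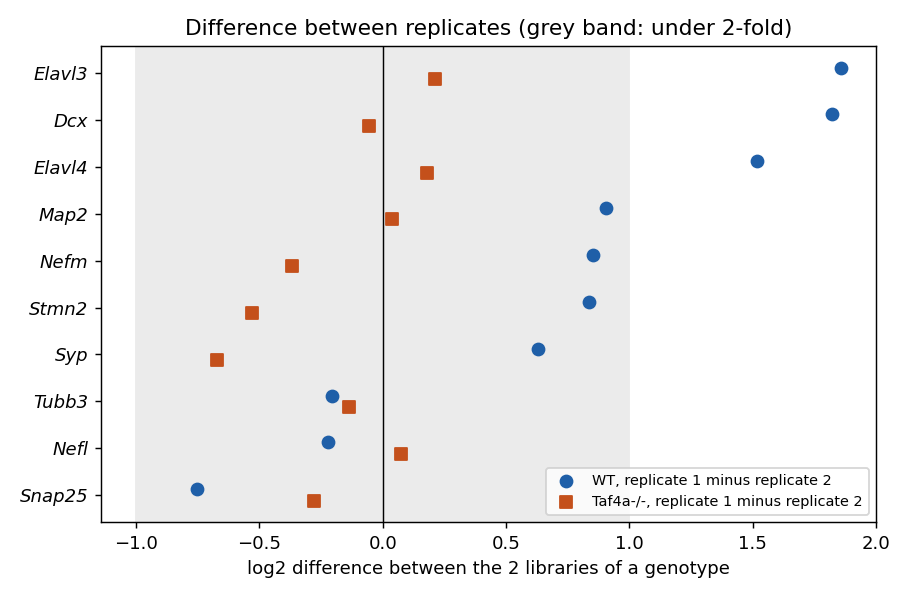
Log2 difference between replicates 1 and 2 within each genotype for the 10 neuronal genes, where the grey band marks differences under 2-fold. *Elavl3*, *Dcx* and *Elavl4* leave the band in WT, at 1.86, 1.82 and 1.52, and no gene leaves it in the libraries labelled *Taf4a*-/-.

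Levels were compared between genes as normalized counts per kilobase of exon. In WT the order began with *Tubb3* at 221 ± 22.2 (SD, n = 2 for all levels per kilobase) and *Stmn2* at 176 ± 70.4, which overlapped. *Nefl* at 86.8 ± 9.41 and then *Nefm* at 22.0 ± 8.99 followed, each below the preceding gene in both libraries. The exon lengths used for *Nefl* and *Nefm* include the shared 1108 nucleotides, from which reads cannot be assigned. The remaining 6 genes overlapped with their neighbours in the order, which were *Elavl4* at 12.5 ± 8.62, *Elavl3* at 8.38 ± 6.89, *Map2* at 8.20 ± 3.56, *Snap25* at 8.02 ± 2.94, *Dcx* at 7.35 ± 5.87 and *Syp* at 4.12 ± 1.31. *Nefm* also overlapped with *Elavl4*. In the libraries labelled *Taf4a*-/- the first 4 genes kept this order, with *Tubb3* at 271 ± 18.3 and *Stmn2* at 247 ± 63.3 still overlapping, *Nefl* at 28.2 ± 1.04 and *Nefm* at 22.7 ± 4.12. They were followed by *Elavl3* at 8.33 ± 0.889 and *Map2* at 5.93 ± 0.114, each below the preceding gene in both libraries. *Syp* at 5.66 ± 1.90 overlapped with both *Map2* and *Elavl4* at 4.61 ± 0.421. *Dcx* at 3.00 ± 0.0844 and *Snap25* at 1.77 ± 0.261 came last and overlapped with no neighbour. Over the 4 libraries *Tubb3* had a higher level per kilobase than 60.5% and *Stmn2* than 56.4% of the genes tested, whereas *Nefl* ranked above 30.6%, *Nefm* above 18.2% and the other 6 above 3.24% to 7.75%. Divided by the longest transcript instead of all exons, the mean over the 4 libraries moved from 7.07 to 18.6 for *Map2*, above *Elavl4* (11.1) and *Elavl3* (8.36), from 22.4 to 35.1 for *Nefm* and from 4.89 to 8.96 for *Syp*, so the order among the lower genes depends on the length used.

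Except *Dcx*, each gene was set beside a widely expressed relative. The neuronal member was the minor form in nearly every case. *Tubb5*, a β-tubulin of most cells, had 48.7 to 89.1 times the level per kilobase of *Tubb3* in the 4 libraries, and *Tubb2a* 1.34 to 1.69 times. *Vim*, the intermediate filament of mesenchymal and progenitor cells, had 172 and 173 times the level of *Nefl* in WT against 486 and 526 times in those labelled *Taf4a*-/-. *Snap23*, the SNARE of non-neuronal membranes, was 75.4 and 61.4 times as high as *Snap25* in WT against 286 and 249 times in those labelled *Taf4a*-/-. *Elavl1*, the ubiquitous Elav gene, ranged from 41.2 to 158 times *Elavl3* and from 29.5 to 136 times *Elavl4*, with both lowest ratios in WT replicate 1. *Map4* was 54.4 to 125 times as high as *Map2*, and *Sypl1*, listed as *Sypl*, 35.1 to 86.8 times as high as *Syp*. *Stmn1* was the closest to its neuronal relative, at 0.967 to 1.35 times the level of *Stmn2*, and only *Tubb2a* came near this. None of the 12 relatives was called by limma, with a median log2 fold change of -0.11 and a range of -0.46 to 0.33. At an unadjusted p under 0.05, 1 was higher and 1 lower, and limma's voom called 0. The falls in the ratio of *Nefl* to *Vim* and of *Snap25* to *Snap23* were not tested as such.

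**Figure D4:**
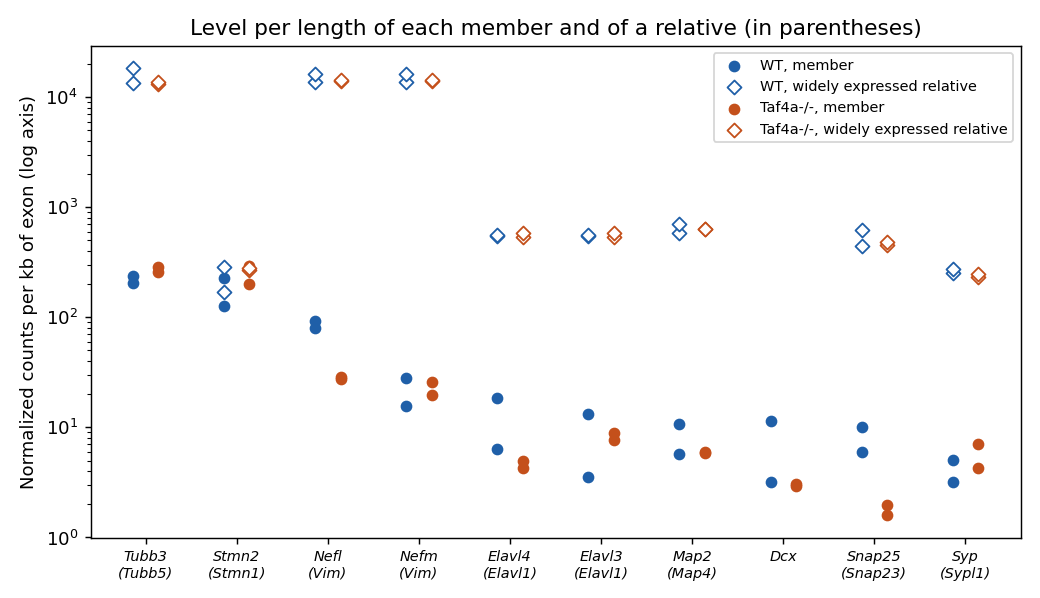
Normalized read counts per kilobase of exon (log axis) for the 10 neuronal genes in each library, ordered by level, with a widely expressed relative of each gene as a diamond. *Tubb3* and *Stmn2* lead at 221 and 176 in WT, and of the relatives shown only that of *Stmn2* lies near its neuronal gene. *Dcx* has no relative shown.

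The 10 genes were placed among 4 lists of further neuronal genes, with 74 genes in all, of which 72 were found and 64 tested. In these lists 5 genes rose and 15 fell in the libraries labelled *Taf4a*-/-, which is 7.81% and 23.4%, against 11.3% and 17.3% of all genes. Their median log2 fold change was -0.33. With quantile normalization the split was 8 higher and 10 lower in the lists, and 2676 higher and 2448 lower over all genes, where it was 1906 and 2928 with the authors' size factors. Many of these genes are also used outside neurons, and their levels were often far above those of the 10 genes.

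In the list of the neuronal cytoskeleton, 2 of 20 genes rose and 3 fell. *Gap43*, a protein of growth cones, fell from 693 and 463 normalized counts in WT to 238 and 280.0 (log2 fold change -1.13, limma adjusted p = 0.0194). *Dpysl3*, which binds tubulin in growing axons, fell by 0.84 on the log2 scale (limma adjusted p = 0.00750) and *Dclk1*, the kinase related to doublecortin, by 0.79 (limma adjusted p = 0.0346). The tubulins *Tubb4a*, listed as *Tubb4*, and *Tubb2b* rose by 0.72 and 0.62 (limma adjusted p = 0.0246 and 0.0444), both with no overlap. In the list of synaptic vesicles and release, 2 of 21 rose and 6 fell. *Unc13a*, which primes vesicles, had 117 and 247 in WT and 42.1 and 66.4 in the libraries labelled *Taf4a*-/- (log2 fold change -1.67, limma adjusted p = 0.0359). *Syt11* fell by 1.32 and the SNARE-binding *Cplx2* by 1.23 (limma adjusted p = 0.00953 and 0.00680). The active-zone gene *Rims1*, at 43.8 and 28.1 in WT and 97.9 and 87.4 in the libraries labelled *Taf4a*-/-, rose by 1.37 on the log2 scale (limma adjusted p = 0.0322). *Stx1a*, which codes for the SNARE partner of Snap25, rose by 0.84 (limma adjusted p = 0.0215), in the opposite direction to *Snap25*.

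Of 11 neuronal RNA-binding genes 2 fell and 0 rose (1 rose at an unadjusted p under 0.05, and 0 by limma's voom). The splicing regulator *Rbfox1* had 73.6 and 109 normalized counts in WT and 2.94 and 1.11 in the libraries labelled *Taf4a*-/- (limma adjusted p = 0.00288). In reads this was 189 in WT against 4 in those labelled *Taf4a*-/-, and the ratio of normalized levels was 43.3 with an exact 95% interval of 16.6 to 160 for counting error. *Celf4*, another regulator of neuronal RNA, fell by 1.08 on the log2 scale (limma adjusted p = 0.0258). Of 12 postsynaptic and transmitter genes tested 1 rose and 4 fell. The scaffold gene *Dlg4* had 1350 and 1906 in WT against 565 and 701 in those labelled *Taf4a*-/- (log2 fold change -1.35, limma adjusted p = 0.00774). The adhesion gene *Nlgn2* fell by 0.82 and the scaffold gene *Homer1* rose by 0.44 (limma adjusted p = 0.0238 and 0.0434).

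**Figure D5:**
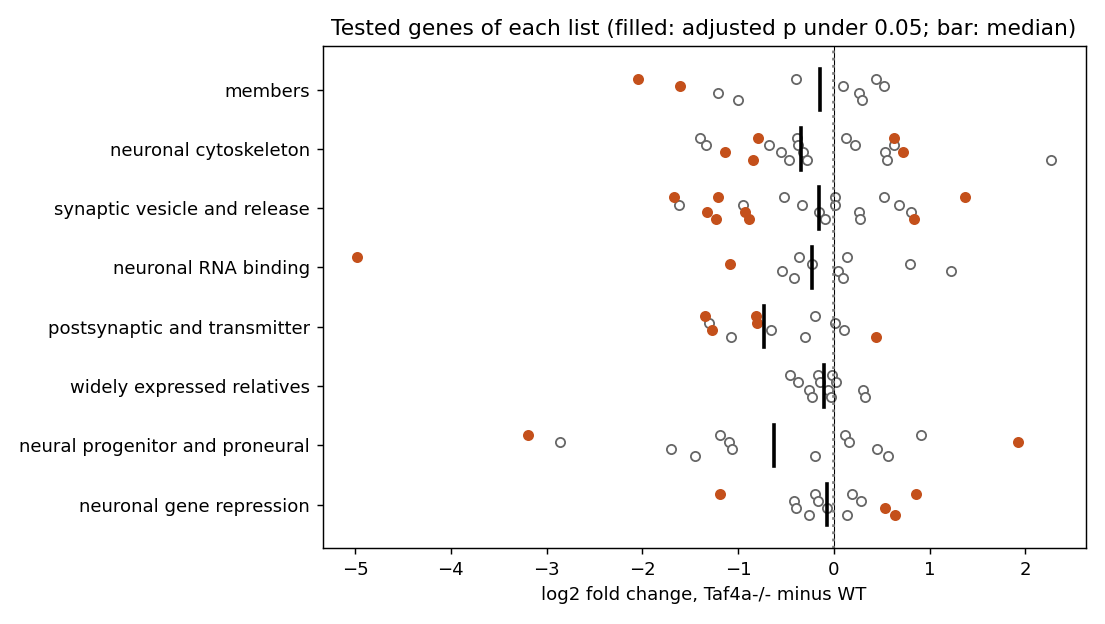
Log2 fold changes of the libraries labelled *Taf4a*-/- over WT for the tested genes of each list, with called genes filled, a bar at the median of each list and a dotted line at the median of all genes tested. The neuronal lists spread around 0 with medians of -0.15 to -0.73. The cardiomyocyte genes, at a median of -2.76, and the pluripotency genes, at 2.76, are not drawn.

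Genes of the repression of neuronal genes outside neurons were also described. *Rest*, the repressor that binds the promoters of many neuronal genes, had 2834 and 2734 normalized counts in WT against 3872 and 4195 in those labelled *Taf4a*-/- (log2 fold change 0.53, limma adjusted p = 0.0199). Its corepressors *Rcor2* and *Hdac1* rose by 0.86 and 0.64, and the phosphatase gene *Ctdspl* fell by 1.19 on the log2 scale (limma adjusted p = 0.0255, 0.0154 and 0.00407). These were the 3 genes that rose and the 1 that fell among 13 on this list, whose median log2 fold change was -0.07. The share called was 30.8%, near the 28.6% of all genes tested. By direction it was 23.1% higher and 7.69% lower, against 11.3% and 17.3% of all genes.

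Markers of other cells that use some of the 10 genes were set beside the 28.6% of all genes called. Of 9 tested neuroendocrine genes 3 fell and 0 rose (1 rose at an unadjusted p under 0.05, and 0 by limma's voom). The list's summed level was 3011 to 4442 in WT against 2088 to 2365 in those labelled *Taf4a*-/-. The granule protein gene *Scg2* had 48.2 and 56.1 in WT and 2.94 and 2.21 in the libraries labelled *Taf4a*-/- (limma adjusted p = 0.00378), and *Scg3* and *Cpe* fell by 2.09 and 1.06 on the log2 scale (limma adjusted p = 0.0352 and 0.0123). *Chga*, the chromogranin A gene and a defining marker on the same list, named after its values were seen, had 69.3 and 28.1 against 103 and 140.5 and did not pass (log2 fold change 1.42, limma adjusted p = 0.0673). Endocrine cells also express *Snap25*, and the part of these cells in its fall was not tested. Of 7 tested glial genes 1 rose and 2 fell, and the summed level was 2252 to 2271 in WT against 1705 to 1964 in those labelled *Taf4a*-/-. The median log2 fold change of the tested glial genes was 0.48, so the sum and the median differed in sign. Without overlap, 3 of them were higher and 2 lower. The defining markers *Gfap* and *S100b* had at most 5.53 and 2.08 normalized counts in any library. Of 6 tested genes of peripheral autonomic neurons only *Ret* was called, rising by 1.87 (limma adjusted p = 0.0439), and the summed level was 3396 to 4390 in WT against 4460 to 5899 in those labelled *Taf4a*-/-. Of 14 tested neural progenitor genes *Sox2* rose by 1.93 and *Fabp7* fell by 3.19 on the log2 scale (limma adjusted p = 0.0360 and 0.0165), and the summed level was 5553 to 6443 in WT against 7961 to 10048 in those labelled *Taf4a*-/-. Its genes had a median of -0.63 in log2 fold change, with 6 genes lower and 1 higher without overlap, so the sum and the median had opposite signs. Over all genes tested, 36.6% were lower and 34.5% higher without overlap. The shares called were 14.3% for the progenitor, 16.7% for the autonomic, 33.3% for the neuroendocrine and 42.9% for the glial list.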

How the data were processed

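Libraries of poly(A) RNA from 2 WT and 2 *Taf4a*-/- cultures were sequenced. Per the labels, the submitters' processing notes name CASAVA 1.8, TopHat 1.3.3, HTSeq 0.5.3p1, DESeq and mm9. The authors deposited normalized counts per gene, that is, read counts divided by a size factor per library and written with decimal commas; every value was a whole multiple of 1 read within 0.1 read, so reads were recovered. Columns of the authors' own comparisons were not used. Genes with a mean of at least 10 were fitted with limma 3.58.1 in R 4.3.3 (lmFit, eBayes with a variance trend) on log2(normalized count + 1), a scale that understates changes of low genes, with Benjamini-Hochberg adjustment over all 16926 genes and a threshold of 0.05. Exon lengths and gene coordinates came from the NCBIM37 annotation, which held all 24637 gene identifiers. Intervals of ratios are exact binomial and account for counting error alone, as no molecular identifiers were used. The script was tested on simulated data. Members and gene lists were chosen with earlier results of these data known. From each list the called genes with no overlap and the largest changes were named, up to 3 in each direction; 1 gene that this rule names is not reported here. The pseudocount, the filter, the scaling, the threshold and the variance model were varied, voom and a replicate block were tried, and each library was left out in turn. The count tests on recovered reads listed among the alternatives were not run.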

Additional observations from a re-analysis of the deposited data

How the results depend on the processing

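*Nefl* was called lower under all 13 alternatives, with log2 fold changes of -1.72 to -1.30 and adjusted p-values of 0.00507 to 0.0402. Leaving out 1 library leaves a genotype with 1 library, which is then assumed to vary like the others. When each library was left out, the median log2 fold change of the 10 genes ranged from -0.75 to 0.13, the number called lower from 1 to 3, and in the 4 neuronal lists the number called higher from 1 to 8 and lower from 7 to 16. In the same fits *Elavl3* ranged from -0.66 to 1.20, *Map2* from -0.85 to 0.060, *Nefm* from -0.33 to 0.52, *Dcx* from -1.91 to -0.09, *Elavl4* from -1.97 to -0.45 and *Snap25* from -2.42 to -1.67. Quantile normalization moved the median of all genes from -0.01 to 0.11 and that of the 10 genes to 0.18, and called 8 genes of the neuronal lists higher. With a mean of at least 50, 6 of the 10 genes were tested and 1 was called lower, *Snap25* not being among them. At an adjusted p under 0.01, 1 of the 10 was called lower, and 0 genes of the neuronal lists were higher and 5 lower. At an adjusted p under 0.1, 8 list genes were higher. Without a filter 3 list genes were higher, and without a variance trend 2. Per kilobase of the longest transcript, *Map2* had 18.6, *Nefm* 35.1 and *Syp* 8.96 normalized counts, which places *Map2* above *Elavl4* and *Elavl3*. No text links the same-numbered libraries, and the main fit did not pair them. Their deviations correlated at 0.01 over 16926 genes, which cannot show whether they were handled together. With the replicate block, 2 of the 10 genes were called lower and 0 higher, and 1536 genes were called higher and 2657 lower over all genes. The count tests on recovered reads were not run. With 11 to 66 reads per library, changes of *Snap25* have wide counting error.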
